A study of Homo sapiens with 15 samples.

Results

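Membrane-bound serine proteases and the Kunitz inhibitors that block them were examined in the prostate adenocarcinoma line C4-2B. The set was a named list of 10 genes out of the 58302 in the count tables. It held 8 proteases (TMPRSS2, TMPRSS3, TMPRSS4, TMPRSS6, HPN, ST14, PRSS8 and CORIN) and 2 inhibitors (SPINT1 and SPINT2). No cut-off on a measured value defined the list, but it was chosen with earlier results of these data known. The series carries labels for 15 RNA-seq libraries in 5 groups of 3. Files of the 3 C4-2B libraries were used, and the DKD and ER libraries, with scr or siPax5, were not analysed here. C4-2B is an established human cell line derived from LNCaP, and its libraries are labelled as adenocarcinoma of wild type genotype, with no siRNA or drug named. The cells were grown in RPMI with 10% serum, and RNA was depleted of ribosomal RNA before sequencing. The study states in general that its experiments used 3 independent replicates. Nothing in the labels says whether the replicates of these libraries were separate cultures, so their spread may be technical.

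Type II transmembrane serine proteases sit in the plasma membrane by a segment near the amino terminus and carry a trypsin-like domain outside the cell. They are made as inactive precursors and become active by a cut at a basic residue. Matriptase (the product of ST14) can activate prostasin (PRSS8), which is held by a lipid anchor, and both matriptase and hepsin (HPN) can cut the precursor of hepatocyte growth factor. HAI-1 (SPINT1) and HAI-2 (SPINT2) are membrane proteins whose Kunitz domains occupy the active site of these enzymes. In the prostate, TMPRSS2 is induced by androgen and is the usual 5′ partner in ETS gene fusions, and hepsin is a known marker of prostate carcinoma. The study counted TMPRSS2 among the genes regulated by the androgen receptor.

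The C4-2B libraries held from 44992971 to 49569026 counts in genes. Levels are given in TPM, which divides each count by the bases of exon in the gene and scales each library to the same total, so that genes of different length can be set side by side. The luminal markers KLK3, KLK2, KRT8 and KRT18 were between 197 and 1988 TPM, and the basal markers TP63, KRT5 and KRT14 had 0, 1 and 89 counts in all. Of markers for other cell types, DCN had 0 counts in each library, PTPRC had 2 counts and PECAM1 had 14 counts in all, and COL1A1, a fibroblast collagen gene, was at 7.09 ± 0.581 TPM (SD, n = 3). The neuroendocrine markers CHGA and SYP were at 1.38 ± 0.243 and 1.31 ± 0.0773 TPM (SD, n = 3 each).

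Because the study examined cytosine methylation at CpG sites of the Pax5 promoter, stretches of DNA before the RefSeq start site are shown with their CpG sites. A member is shown if it had a RefSeq promoter entry with a long enough stretch free of annotated exon bases. There were 4 such members of the 10, namely SPINT1, HPN, CORIN and TMPRSS3. The other 6 were TMPRSS2, TMPRSS4, TMPRSS6, ST14, PRSS8 and SPINT2, and their absence does not mean that they lack a RefSeq promoter entry. The sequences are from RefSeq on GRCh38.p14, read 5′ to 3′ on the strand of the gene, with each CpG in capitals, and stop before the first base that the count tables place in an exon. SPINT1 and HPN were abundant in these cells, CORIN was low and TMPRSS3 was barely detected. The stretches are SPINT1 chr15:40843798-40844017 (plus strand), HPN chr19:35041471-35041720 (plus strand), CORIN chr4:47838107-47838317 (minus strand) and TMPRSS3 chr21:42389150-42389399 (minus strand). Those of SPINT1 and CORIN end where the gene begins in the count tables, while those of HPN and TMPRSS3 lie within the gene as annotated there, in introns.
SPINT1: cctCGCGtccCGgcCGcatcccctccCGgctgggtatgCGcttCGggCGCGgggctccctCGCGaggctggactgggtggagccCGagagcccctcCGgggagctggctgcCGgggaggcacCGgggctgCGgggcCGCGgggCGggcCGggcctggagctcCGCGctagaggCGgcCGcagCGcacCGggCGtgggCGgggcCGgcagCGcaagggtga
HPN: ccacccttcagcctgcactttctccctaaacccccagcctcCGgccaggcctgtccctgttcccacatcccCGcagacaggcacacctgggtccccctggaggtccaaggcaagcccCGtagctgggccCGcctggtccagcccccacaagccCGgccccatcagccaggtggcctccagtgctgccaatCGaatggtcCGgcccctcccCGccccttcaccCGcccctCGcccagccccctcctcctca
CORIN: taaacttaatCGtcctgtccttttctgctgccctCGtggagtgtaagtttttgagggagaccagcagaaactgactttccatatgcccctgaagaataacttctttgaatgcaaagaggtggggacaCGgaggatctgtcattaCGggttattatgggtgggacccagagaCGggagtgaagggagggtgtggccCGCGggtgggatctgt
TMPRSS3: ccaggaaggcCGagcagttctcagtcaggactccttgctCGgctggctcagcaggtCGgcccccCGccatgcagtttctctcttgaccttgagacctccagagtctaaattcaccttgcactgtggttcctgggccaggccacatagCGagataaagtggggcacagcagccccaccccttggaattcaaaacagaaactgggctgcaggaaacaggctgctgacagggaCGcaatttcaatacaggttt

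The SPINT1 stretch held 30 CpG sites in 220 bases, or 13.6 per 100 bases, and 6.85% of the 34943 RefSeq windows held as many in the same positions. HPN had 10 CpG sites in 250 bases, a number reached by 52.1% of windows. CORIN had 7 in 211 bases (54.5% of windows) and TMPRSS3 had 6 in 250 bases (61.8% of windows). SPINT1 thus held at least 3 times as many CpG sites as each of the others, while HPN, at 69.9 TPM, had a number close to that of CORIN and TMPRSS3. CpG is its own reverse complement, so a count on 1 strand covers both. No methylation was analysed here, and the letters say nothing of it.

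The 10 genes fell on both sides of a wide gap in level. TMPRSS2, ST14, SPINT1, SPINT2, HPN and PRSS8 lay between 32.3 and 202 TPM in every library, and CORIN, TMPRSS4, TMPRSS6 and TMPRSS3 lay below 0.73 TPM in every library. The lowest gene of the upper group, PRSS8, was 48.5 times the highest of the lower group, CORIN, with ratios of 52.1, 46.5 and 47.2 in replicates 1, 2 and 3. Of the 10 genes, 6 had at least 1 TPM in all 3 libraries. The same held for 61.2% of 19708 protein-coding genes and for 32.8% of all genes listed, so the share of members was near that of protein-coding genes. Their median was 51.4 TPM, against 5.88 TPM over protein-coding genes.

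**Figure D1:**
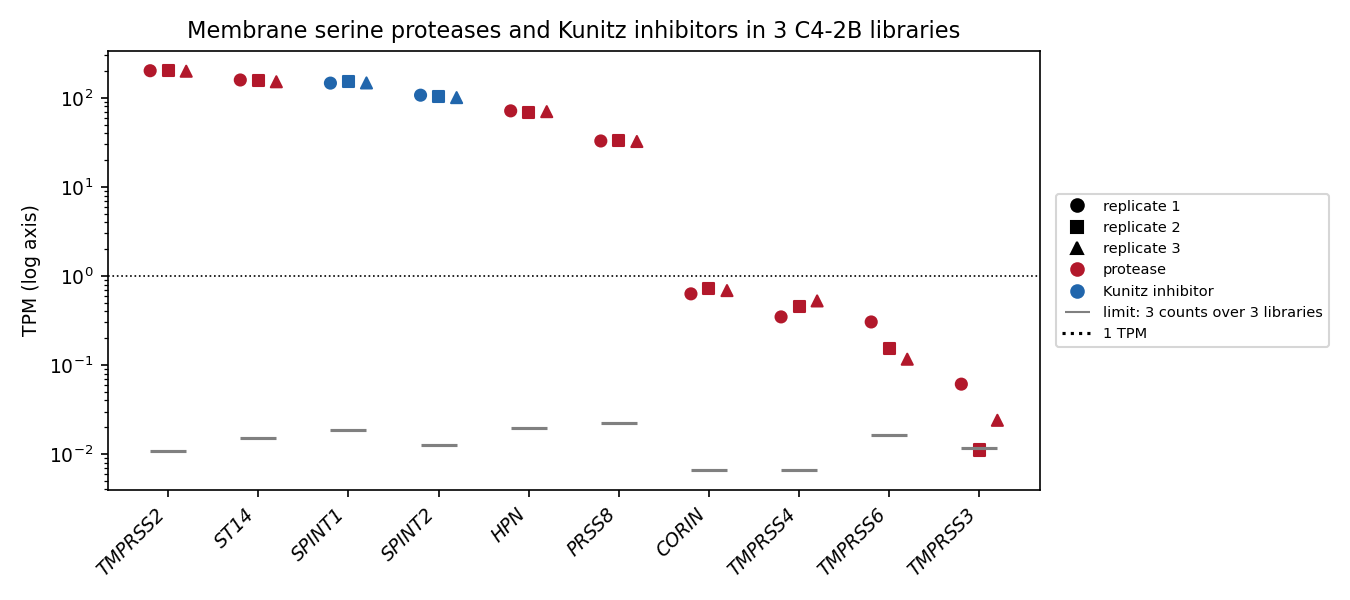
TPM of the 8 proteases (red) and 2 Kunitz inhibitors (blue) on a log axis, with 1 point per C4-2B library and a grey mark at the level that 3 counts over the 3 libraries would give. The 6 genes on the left are all above 32 TPM, the 4 on the right are all below the dotted line at 1 TPM, and the points of TMPRSS6 and TMPRSS3 spread most.

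Among the proteases, TMPRSS2 was highest. Its gene lies on chromosome 21 (ENSG00000184012, 41464551 to 41531116, minus strand). TMPRSS2 was at 201.6, 201.6 and 198.9 TPM in replicates 1, 2 and 3, a mean of 201 ± 1.52 TPM (SD, n = 3) from 55477 counts, and 97.4% of protein-coding genes were lower. The libraries were nearly level, with a coefficient of variation of 0.756%. No exon base of TMPRSS2 lies under another gene.

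ST14, which encodes matriptase, followed. It lies on chromosome 11 (ENSG00000149418, 130159562 to 130210376, plus strand) and was at 158.6, 157.6 and 151.5 TPM, a mean of 156 ± 3.87 TPM (SD, n = 3). Replicate 3 was the lowest. TMPRSS2 exceeded ST14 in each library by 1.27 to 1.31 times, and their ranges did not overlap. Together, TMPRSS2 and ST14 took 77.4% ± 0.237 of the summed TPM of the 8 proteases (SD, n = 3).

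HPN encodes hepsin and lies on chromosome 19 (ENSG00000105707, 35040506 to 35066571, plus strand). Its level was 71.4, 68.5 and 70.0 TPM, a mean of 69.9 ± 1.45 TPM (SD, n = 3), above 90% of protein-coding genes. Hepsin transcripts amounted to 0.348 ± 0.00770 of those of TMPRSS2 and 0.449 ± 0.0137 of those of ST14 (SD, n = 3 each). The antisense gene HPN-AS1 covers 10.3% of the exon bases of HPN, where reads were assigned to neither gene, and HPN-AS1 itself had 33, 43 and 40 counts. With shared bases left out of the lengths of all genes, HPN was at 74.3 ± 1.55 TPM. Counting did not use strand, so antisense reads elsewhere in HPN cannot be told apart from its own.

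PRSS8 encodes prostasin, a substrate and partner of matriptase in epithelia. It lies on chromosome 16 (ENSG00000052344, 31131433 to 31135762, minus strand) and was at 32.8, 33.6 and 32.3 TPM, with a mean of 32.9 ± 0.639 TPM (SD, n = 3). Prostasin transcripts were 0.211 ± 0.00382 of those of matriptase. A noncoding gene with 0 counts, ENSG00000261385, covers 11.9% of the exon bases of PRSS8, and without shared bases PRSS8 was at 35.6 ± 0.692 TPM.

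The remaining 4 proteases were low. CORIN, which encodes the enzyme that processes atrial natriuretic peptide in the heart, lies on chromosome 4 (ENSG00000145244, 47593998 to 47838106, minus strand). It had 92, 116 and 102 counts, at 0.629, 0.722 and 0.685 TPM. The 95% exact Poisson limits for its 310 counts are 0.605 and 0.759 TPM.

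TMPRSS4, a protease described in several carcinomas, lies on chromosome 11 (ENSG00000137648, 118077012 to 118121890, plus strand). It had 50, 72 and 77 counts, at 0.347, 0.455 and 0.524 TPM, a mean of 0.442 ± 0.0893 TPM (SD, n = 3). Replicate 1 was the lowest, and the highest library of TMPRSS4 stayed below the lowest of CORIN.

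TMPRSS6 encodes matriptase-2, which restrains hepcidin in the liver by cutting hemojuvelin. It lies on chromosome 22 (ENSG00000187045, 37065436 to 37109563, minus strand) and had 18, 10 and 7 counts, at 0.304, 0.154 and 0.116 TPM. The 95% Poisson interval of its 35 counts is 0.133 to 0.266 TPM. The range of TMPRSS6 came close to that of TMPRSS4, since replicate 1 gave 0.304 TPM for TMPRSS6 and 0.347 TPM for TMPRSS4.

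TMPRSS3, a gene of inherited deafness, was lowest. It lies on chromosome 21 (ENSG00000160183, 42371890 to 42396846, minus strand) and had 5, 1 and 2 counts. Its mean was 0.0320 TPM, and 0.0175 TPM without replicate 1, where the libraries left had 1 and 2 counts. The mean over all 3 libraries has a Poisson interval of 0.0138 to 0.0630 TPM. The limit for 3 counts over the 3 libraries is 0.0117 TPM. These intervals cover counting error only, and they are too narrow, since mates of a pair were counted separately.

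The inhibitors were of the same order as their target proteases. SPINT1 lies on chromosome 15 (ENSG00000166145, 40844018 to 40858207, plus strand) and was at 146.3, 150.9 and 147.0 TPM, a mean of 148 ± 2.48 TPM (SD, n = 3). SPINT2 lies on chromosome 19 (ENSG00000167642, 38244035 to 38292614, plus strand) and was at 107.1, 102.5 and 100.5 TPM, a mean of 103 ± 3.35 TPM (SD, n = 3). Exon bases under other genes make up 2.82% of SPINT1 and 4.65% of SPINT2. In each library SPINT1 was above SPINT2, by 1.37, 1.47 and 1.46 times.

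In the order of levels, ST14 and SPINT1 were the closest neighbours. The lowest library of ST14 was at 151.5 TPM and the highest of SPINT1 at 150.9 TPM, and SPINT1 per ST14 was 0.922, 0.957 and 0.970. Every other pair of neighbours among the 6 abundant genes was further apart than either range. Both genes of a pair were measured in the same 3 libraries, and an exact two-sided permutation of the signs of 3 differences cannot give a p below 0.25, so no test is given for the order.

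The order of the inhibitors depended on gene length. The count tables measure length as the union of all exons of a gene, which is 5199 bases for SPINT2, while its Ensembl canonical transcript has 1688 bases. With canonical transcript lengths throughout, SPINT2 was at 214 ± 6.75 TPM and SPINT1 at 119 ± 2.02 TPM (SD, n = 3 each), so that their order turned. SPINT2 then ranked second, below TMPRSS2 at 239 ± 1.65 TPM and above ST14 at 138 ± 3.32 TPM. The ratio of SPINT1 to SPINT2 went from 1.43 ± 0.0586 to 0.554 ± 0.0226. Counts were the same under both lengths, so reads over exons outside the canonical transcript were still counted. A level by canonical length may thus be too high, and by how much for SPINT2 was not tested. The other 8 genes kept their order among themselves under both lengths, but ratios between them moved by more than their SD. With canonical lengths HPN per ST14 was 0.660 ± 0.0201, HPN per TMPRSS2 0.381 ± 0.00841 and PRSS8 per ST14 0.263 ± 0.00475 (SD, n = 3 each).

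**Figure D2:**
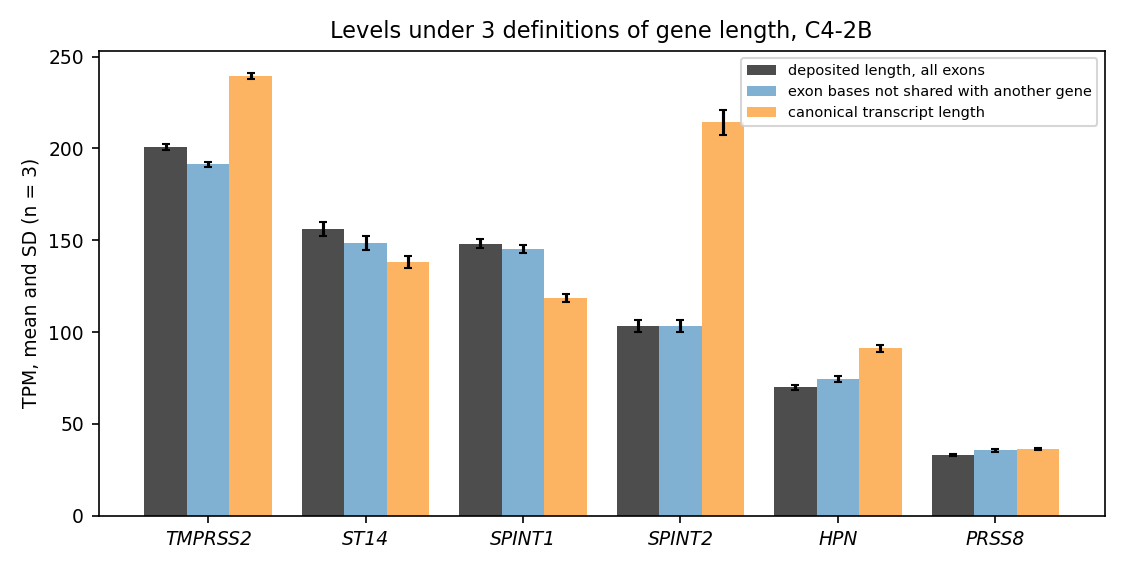
Mean TPM with SD over 3 C4-2B libraries (linear axis from 0) for the 6 abundant genes, under the deposited union of exons, exon bases not shared with another gene, and the canonical transcript length. SPINT2 moves from 103 to 214 TPM with the canonical length, past ST14 and SPINT1, and the other 5 genes move by at most 1.30 times.

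Both inhibitors together stood at 251 ± 3.35 TPM and the 8 proteases at 461 ± 6.03 TPM (SD, n = 3 each). This is 0.546 ± 0.00187 inhibitor transcripts per protease transcript, with 0.544, 0.548 and 0.545 in the 3 libraries. Against the proteases best known as their targets (ST14, HPN and PRSS8), the ratio was 0.972 ± 0.00666 (SD, n = 3). With canonical lengths these ratios were 0.657 ± 0.00524 and 1.25 ± 0.00386, so whether inhibitor or target transcripts were more numerous in the latter depended on the length used. RNA levels do not give the amount of protein or its activity.

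**Figure D3:**
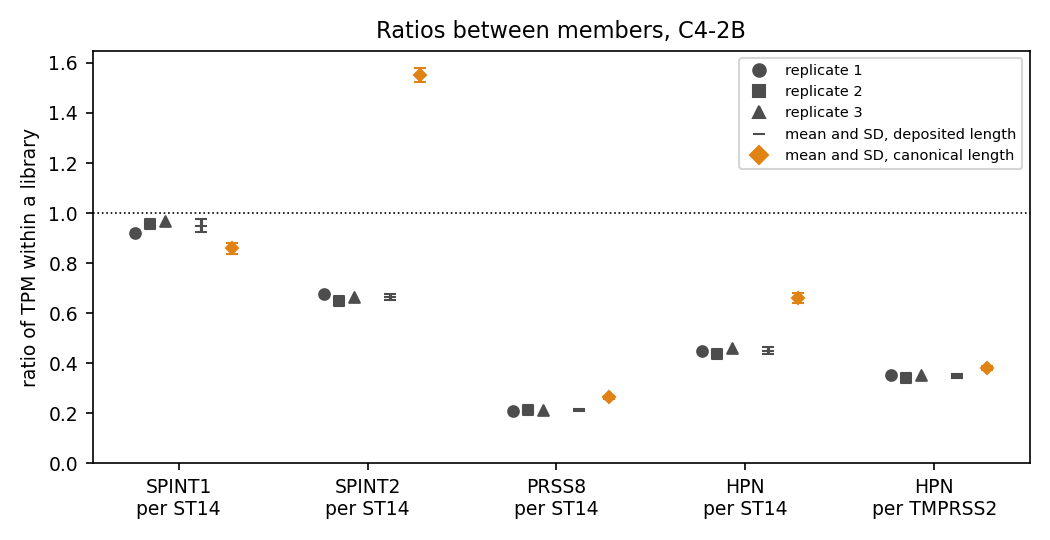
Ratios of TPM between members within each C4-2B library (points), with mean and SD over 3 libraries under the deposited length (dash) and the canonical transcript length (diamond). The libraries lie close together for each ratio, and SPINT2 per ST14 is below 1 with the deposited length (0.663) and above 1 with the canonical length (1.55).

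To see whether any member varied between replicates beyond counting noise, each gene's counts were compared with the library sizes by a chi-square test over all genes. The chi-square was divided by 2, because both mates of a pair were counted. Of the 10 genes, 9 had the 30 counts needed for the test, and TMPRSS3 did not. None of the 9 passed an adjusted p of 0.05, against 0.792% of the 22229 genes tested. At an unadjusted p under 0.05 there were 2 of 9, against 11.3% of genes tested. These were SPINT2, highest in replicate 1 and lowest in replicate 3, with an adjusted p of 0.178, and ST14, lowest in replicate 3, with an adjusted p of 0.282. Without the division, SPINT2 (adjusted p = 0.000777) and ST14 (adjusted p = 0.00381) passed, or 2 of 9 where 17.3% of all genes tested did. Over the other settings, among them leaving out each replicate, the adjusted p of the chi-square test was 0.0853 to 0.834 for SPINT2 and 0.185 to 0.911 for ST14. The largest value came without replicate 1 for SPINT2 and without replicate 3 for ST14. The spread of the low genes was wide in relative terms, with a coefficient of variation of 52.0% for TMPRSS6, but its adjusted p was 0.678 by the same chi-square test (0.138 to 0.845 over the alternatives).

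Other genes of the pathway were described from lists of related genes. Their shares at 1 TPM or more in all 3 libraries stand beside 61.2% of protein-coding genes and 32.8% of all genes. Of 11 further type II transmembrane serine proteases, 4 had at least 1 TPM in all 3 libraries, and the median of the list was 0.0452 TPM. The highest were TMPRSS11E at 4.70 ± 0.672 TPM, TMPRSS13 at 3.75 ± 0.549 TPM and TMPRSS9 at 1.94 ± 0.297 TPM (SD, n = 3 each), and with canonical lengths TMPRSS13 was above TMPRSS11E. TMPRSS11B had 0 counts, and the limit of 3 counts over the 3 libraries is 0.0197 TPM. This limit, used for all genes at 0, covers counting error only and is too low where both mates of a pair were counted. None of the 11 reached the level of PRSS8, the lowest of the 6 abundant members. TMPRSS13 lies 148 kb from TMPRSS4 on chromosome 11 and was above it in every library. The anchored proteases PRSS21, which encodes testisin, and TPSG1, a tryptase gene, had 4 and 5 counts in all.

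Of 11 other genes with a Kunitz domain, 4 had at least 1 TPM in all 3 libraries. APP and APLP2, amyloid precursor family genes in which a Kunitz domain is present in some isoforms only, were at 232 ± 3.17 and 193 ± 0.937 TPM (SD, n = 3 each). With the deposited lengths, APP was above TMPRSS2, the highest member, in every library, and APLP2 lay between TMPRSS2 and ST14. Canonical lengths put APLP2 at 262 ± 1.26 TPM, above TMPRSS2 at 239 ± 1.65 TPM (SD, n = 3 each). The counts are per gene and do not tell these isoforms apart. TFPI, an inhibitor of the clotting pathway, was at 13.8 ± 0.236 TPM. SPINT4 and EPPIN had 0 counts, with limits of 0.130 and 0.0107 TPM. SPINT1 and SPINT2 were each above every other gene of this list apart from APP and APLP2.

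Among 16 substrates of these proteases and their receptors, 6 had at least 1 TPM in all 3 libraries. EPCAM at 89.9 ± 3.63 TPM and CDCP1 at 89.9 ± 2.44 TPM, both surface proteins that matriptase can cut, were highest, followed by F2RL1 at 49.4 ± 2.29 TPM (SD, n = 3 each). F2RL1 encodes the receptor PAR2, which is switched on by trypsin-like proteases. With canonical lengths F2RL1 was at 34.4 ± 1.62 TPM, below SCNN1A at 41.9 ± 0.636 TPM (SD, n = 3 each). HGF, whose precursor matriptase and hepsin can cut, had 8, 10 and 12 counts, and its receptor gene MET was at 0.342 ± 0.0357 TPM. Of the epithelial sodium channel subunits, SCNN1A was at 33.4 ± 0.488 TPM, SCNN1G at 2.99 ± 0.0725 TPM and SCNN1B at 0.669 ± 0.114 TPM (SD, n = 3 each). The urokinase gene PLAU had 0, 0 and 1 counts, but 31.1% of its exon bases lie under other genes, where reads were not counted. HJV, which encodes the TMPRSS6 substrate hemojuvelin, had 0 counts, with a limit of 0.0275 TPM.

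Serpins are the other large family of serine protease inhibitors. Of 10 serpin genes, 3 had at least 1 TPM in all 3 libraries, with SERPINB6 at 70.6 ± 2.56 TPM, SERPINE2 at 3.48 ± 0.167 TPM and SERPINB5 at 1.62 ± 0.50 TPM (SD, n = 3 each). SERPINB5, which encodes maspin, was highest in replicate 3, at 128 counts against 75 and 85. SERPINB2 had 0 counts, with a limit of 0.0242 TPM, and 19.9% of its exon bases lie under other genes, where reads were not counted. Both Kunitz inhibitors were above every serpin of the list with the deposited lengths, but with canonical lengths SERPINB6 was at 171 ± 6.07 TPM, above SPINT1 at 119 ± 2.02 TPM (SD, n = 3 each). Of the 50 genes in these 5 lists, 26 had enough counts for the chi-square test between libraries. None of the 26 passed with the division, against 0.792% of all genes tested, and 6 did without it, against 17.3%.

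**Figure D4:**
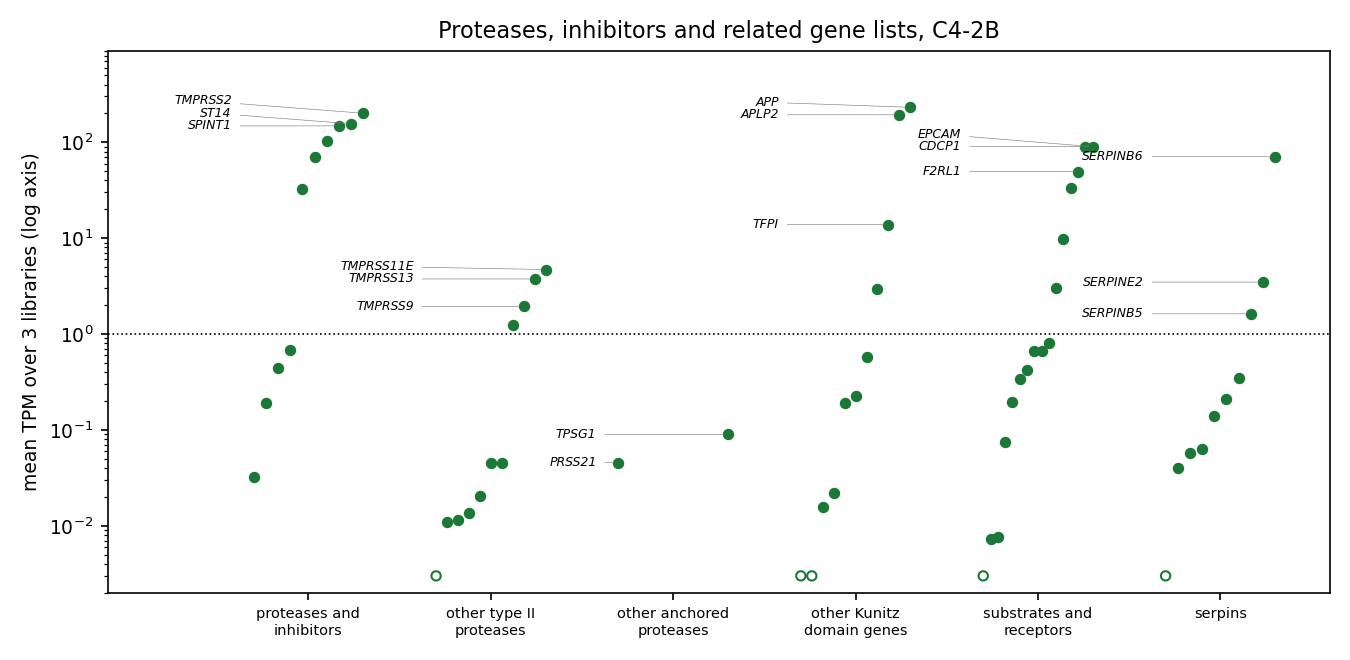
Mean TPM over 3 C4-2B libraries on a log axis, 1 point per gene, for the 10 proteases and inhibitors and for 5 lists of related genes, with open points at the bottom for genes with 0 counts. The highest genes of each list are named, and of the related genes APP and APLP2 alone are above 100 TPM with the deposited lengths.

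The nearest protein-coding neighbours of the members ranged from 0 counts (UBASH3A, beside TMPRSS3) to the level of the abundant members. MX1, an interferon-induced gene 5.34 kb from TMPRSS2, was at 1.29 ± 0.137 TPM. APLP2, 14.8 kb from ST14, was at 193 ± 0.937 TPM, above ST14 itself in every library. KAT8 lies 39 bases from PRSS8 on the opposite strand and was at 25.99 ± 0.967 TPM (SD, n = 3 each). Next to the low genes, KCTD17, 2.05 kb from TMPRSS6, was at 16.1 ± 0.916 TPM and NFXL1, 9.13 kb from CORIN, at 19.1 ± 0.939 TPM. All other neighbours of the low genes were low too, with means of at most 2.00 TPM (SCN4B, beside TMPRSS4). Among them, ATP10D, 0.511 kb from CORIN, was at 0.0361 ± 0.0215 TPM. TMPRSS2 and TMPRSS3 lie 841 kb apart on chromosome 21, at the highest and the lowest level of the 10.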

How the data were processed

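RNA-seq was carried out on total RNA of C4-2B cells in triplicate (libraries of 3 of the 15 labelled samples were analysed here). Libraries were made with a kit that keeps strand and sequenced in pairs. The submitters' processing notes name Trim Galore, STAR 2.7.0f and GRCh38. The values deposited by the authors are raw counts for each gene, made with featureCounts 1.6.3 and the Ensembl 90 annotation, per the file headers, with no setting for strand or pairs. Mates were therefore counted separately, reads on either strand were counted, and reads over exons of more than 1 gene were not. The other deposited value used, gene length, is the union of exons.

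Gene symbols were matched for 57532 of 58302 identifiers. TPM was computed from counts and deposited lengths over all genes. RN7SL2, a small noncoding RNA gene, took 19.6% of the TPM, which lowers all other levels. Libraries were compared by a chi-square test (2 degrees of freedom, halved, at least 30 counts) with TMM sizes from edgeR 4.0.16 and Benjamini-Hochberg adjustment over all genes tested. It compares libraries, not conditions. The test was checked on simulated counts in which each pair gave 2 counts, for which the halving is right by design. The real counts need not follow that setting. DESeq2 1.42.0 served for alternative size factors. Gene types and canonical transcripts came from GENCODE 44, which is on GRCh38.

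The 10 genes and the lists were chosen with earlier results of these data known. Named genes are the 10 members, and of each list the 3 highest and those with 0 counts, genes whose exons overlap a member and nearest protein-coding neighbours, of which those stated are examples. HGF, MET, the SCNN1 subunits and PLAU were named after their values were seen. The markers of other cell types are given whole. With 1 group analysed, no gene was named for a like pattern across samples.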

Additional observations from a re-analysis of the deposited data

How the results depend on the processing

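No paired analysis was possible because a single group, C4-2B, entered the work. The canonical transcript length was an alternative chosen after the data were examined. Inhibitor per protease transcripts came to 0.471 on CPM, 0.551 with exon bases not shared with another gene, 0.967 without TMPRSS2 among the proteases and 0.657 with canonical lengths. These settings change the scale or the genes summed. Leaving out each replicate gave 0.545 to 0.546. The number of members differing between libraries was 2 with the chi-square not divided and 0 under the other 7 settings run, and leaving out a replicate let 8 members be tested. The number of members at 1 TPM or more was 6 under every setting that kept this level. With other levels it was 7 at 0.5 TPM, 6 at 2 TPM and 8 at 1 CPM, where CORIN and TMPRSS4 were added. Without mitochondrial genes and the 10 genes of highest mean CPM in the denominator, TMPRSS2 was at 290.4 TPM, and over protein-coding genes alone at 279.7 TPM. The alternative with RefSeq coding lengths was not run. TMPRSS3 was at 0.0175 TPM without replicate 1, and its 8 counts limit any statement on its level.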
